A study of Mus musculus with 6 samples.

Results

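Lfng, Mfng, Rfng, Pofut1, Poglut1, Adam10, Adam17, Psen2 and Ncstn encode proteins that put sugars on Notch receptors or cut them. These 9 genes were taken by their names from the deposited table of 55401 genes, where each name occurs once, and all 9 were among the 18438 genes with enough counts to be tested. The libraries came from kidney endothelial cells (ECs) sorted as CD31-positive and CD45-negative, 3 from CTRL mice (Cre -/-; Rbpjf/f) and 3 from RbpjΔEC mice (Cre +/-; Rbpjf/f, RbpjDEC in the labels), with 1 library per mouse. In the RbpjΔEC mice a tamoxifen-dependent Cre under the endothelial Cdh5 promoter deletes floxed Rbpj sequence, and Rbpj encodes the DNA-binding protein through which cleaved Notch receptors switch on their targets. All mice of both groups were male and carried the floxed alleles, with Cre-negative littermates as CTRL, and received 5 injections of 1.5 mg tamoxifen at 8 weeks of age, with harvest 12 weeks after induction and a labelled age of 21 weeks. This Cre line can also act in lymphatic ECs. The comparison asks whether the genes that ready and cut the receptor differ when the last step of the pathway is deleted in ECs.

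A Notch receptor is prepared in the secretory pathway before it can signal. Pofut1 (protein O-fucosyltransferase) and Poglut1 (protein O-glucosyltransferase) place the first sugar on EGF repeats of its outer part, and the 3 Fringe enzymes, Lfng (lunatic), Mfng (manic) and Rfng (radical), extend the O-fucose and so change which ligands the receptor answers to. After ligand binding, the surface metalloprotease Adam10 cuts the receptor outside the membrane, a cut that Adam17 can also make in some settings. The gamma-secretase complex then cuts within the membrane, with presenilin (Psen2 is one of its forms) as the catalytic subunit and nicastrin (Ncstn) as a large subunit needed for the complex, and the freed inner part moves to the nucleus.

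Promoters of Lfng and Psen2 in RefSeq (GRCm38.p6) hold the letters GTGGGAA or their reverse complement TTCCCAC, the core to which RBPJ binds, and are shown because RBPJ is the deleted factor. The table of promoters held 8 of the 9 genes, all but Mfng, with 9 promoters. Each had 300 bases, from 250 before to 50 after the start. Both strands were searched. The motif was in 2 of these 9 promoters and in 6.38% of all 32851 promoters, and its last 6 letters alone, TGGGAA or TTCCCA, were in 3 of the 9 and 25.6% of all. The 250 bases before each start are given 5′ to 3′ on the strand of the gene, with the motif in capitals. The Lfng stretch is chr5:140607091-140607340 on the plus strand, with the motif 109 to 103 bases before the start, and 3 of its bases also belong to a CACGTG, letters held by 4 of the 9 promoters and 7.15% of all. The Psen2 stretch is chr1:180245951-180246200 on the minus strand, before an inner start, 1 of 2 listed for Psen2, with the reverse complement 89 to 83 bases before it.
Lfng: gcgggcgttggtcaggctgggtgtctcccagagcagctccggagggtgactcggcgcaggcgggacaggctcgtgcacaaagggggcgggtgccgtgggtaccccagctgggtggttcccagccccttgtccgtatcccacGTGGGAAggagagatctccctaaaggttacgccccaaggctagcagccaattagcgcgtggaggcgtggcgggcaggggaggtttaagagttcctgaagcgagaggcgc
Psen2: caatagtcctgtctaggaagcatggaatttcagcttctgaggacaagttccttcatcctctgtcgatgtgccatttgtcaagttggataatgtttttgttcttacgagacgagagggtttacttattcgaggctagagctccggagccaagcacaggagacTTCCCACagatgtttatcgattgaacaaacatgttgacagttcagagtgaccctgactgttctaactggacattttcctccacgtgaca
These letters describe the sequence and were not tested as binding sites.

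The libraries held between 39649171 and 47726850 counts on genes. A count of 3 was between 0.0633 and 0.0748 CPM (a gene's counts in every 1000000, with library sizes scaled by edgeR's TMM factor), and the lowest count of any of the 9 genes was 576. CTRL 1 listed 33764 genes above 0, and the other 5 libraries listed between 25629 and 26785. Rbpj itself had 28.1, 29.7 and 29.8 CPM in CTRL 1 to 3 and 28.8, 26.1 and 29.6 CPM in RbpjΔEC 1 to 3, over the whole gene and not the floxed part, so these values do not check the labelled group. The summed CPM of 10 endothelial markers was between 19715 and 21392 in CTRL and between 17847 and 18363 in RbpjΔEC. Of these 10 markers, 7 had a log2 fold change below 0 and 3 above 0, and 0 passed the adjusted test. Markers of mural cells, which surround vessels, summed to between 72.3 and 90.0 CPM in CTRL and between 27.8 and 46.6 CPM in RbpjΔEC (7 genes), those of fibroblasts to between 4.62 and 7.08 against between 1.54 and 2.92 CPM (6 genes), and those of macrophages to between 14.0 and 14.3 against between 23.4 and 27.5 CPM (5 genes). The sums of tubule markers (7 genes, between 103 and 414 CPM) and podocyte markers (3 genes, between 179 and 216 CPM, nearly all from Synpo) and the leukocyte marker Ptprc (between 0.535 and 3.91 CPM) overlapped between the groups. Within the tubule list, Umod (log2 fold change -1.19), Slc12a1 (-1.25) and Aqp2 (-2.77) had lower values in RbpjΔEC with no overlap and did not pass the adjusted test, while RbpjΔEC 3 had the highest Lrp2 (129 CPM) and Slc34a1 (73.5 CPM). At the adjusted threshold, 3 of 6 tested mural markers (Acta2, Myh11 and Rgs5) and 1 of 3 tested fibroblast markers (Pdgfra) passed as lower. Over all tested genes, 0.559% passed as lower and 0.575% as higher, and 11.6% were lower with no overlap. Of the macrophage markers Cd68 alone passed, as higher, and 3 of the 4 tested had a log2 fold change below 0. The 4 B cell markers summed to between 0.675 and 0.822 CPM in CTRL and between 0.245 and 0.598 CPM in RbpjΔEC, and the 4 T cell markers to at most 0.0844 CPM, with no counts for Cd3e and Cd3d. The part of these shifts in the results below was not tested, and in bulk libraries fewer cells of a type cannot be told apart from less RNA per cell.

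None of the 9 genes passed the test between RbpjΔEC and CTRL. Rfng and Mfng, both Fringe genes, had higher means in RbpjΔEC, Psen2, Ncstn, Adam17, Pofut1, Poglut1 and Adam10 had lower means, and Lfng was nearly level. Log2 fold changes ran from -0.33 for Psen2 to 0.26 for Rfng, with a median of -0.13 against 0.01 over all tested genes. With p-values adjusted by Benjamini-Hochberg over all tested genes in edgeR's quasi-likelihood test, 0 of the 9 were under 0.05, against 1.13% of all tested genes (0.559% lower and 0.575% higher). DESeq2's Wald test also called 0 of the 9. At an unadjusted p under 0.05 there were 3 lower and 2 higher genes among the 9, against 17.5% of all tested genes (8.62% lower and 8.88% higher). This number was 2 without CTRL 1, and 3 without CTRL 3 or RbpjΔEC 2, where the share of all tested genes was 12.1%, 12.98% and 15.7%. The libraries of the groups did not overlap for 5 lower genes and 1 higher gene, which held for 23.0% of all tested genes (11.6% lower and 11.4% higher). On counts scaled by library size alone, 4 genes did not overlap (Mfng, Rfng, Adam17 and Ncstn). The share of all tested genes without overlap was not computed for that scaling.

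**Figure D1:**
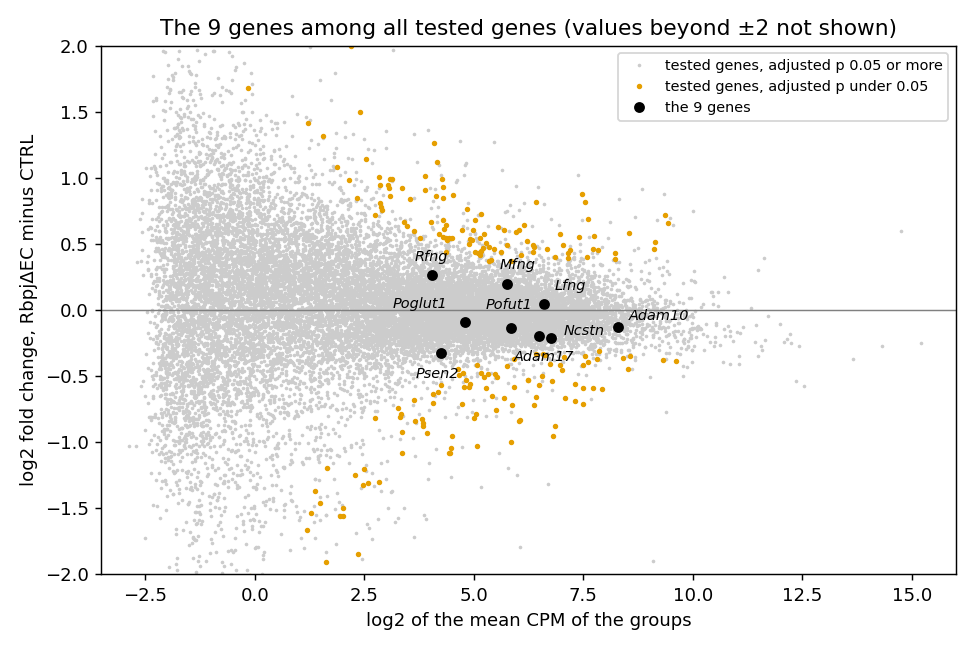
Log2 fold change (RbpjΔEC minus CTRL) against log2 of the mean CPM for the 18438 tested genes, with the 9 genes as black points and genes at an adjusted p under 0.05 in orange. The 9 genes lie between -0.33 and 0.26, inside the cloud of genes that did not pass.

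Rfng had the largest upward difference among the 9 genes. It lies on chromosome 11 from 120780746 to 120784207 on the minus strand (GRCm38, gene ENSMUSG00000025158.7). Its level was 14.4, 16.8 and 14.2 CPM in CTRL 1 to 3 and 17.6, 18.9 and 18.0 CPM in RbpjΔEC 1 to 3. Every RbpjΔEC library was above every CTRL library, though RbpjΔEC 1 was close to CTRL 2. The means were 15.1 ± 1.45 CPM (SD, n = 3) and 18.2 ± 0.660 CPM (SD, n = 3). Its log2 fold change was 0.26 (standard error 0.105, 95% interval 0.04 to 0.49), with an unadjusted p of 0.0271 and an adjusted p of 0.220 by edgeR, and without 1 library in turn the unadjusted p was under 0.05 in 2 of 6 fits.

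Mfng differed in the same direction as Rfng with a smaller size. It lies on chromosome 15 from 78755882 to 78773475 on the minus strand (ENSMUSG00000018169.12). Mfng had 48.9, 54.5 and 48.5 CPM in CTRL 1 to 3 and 58.7, 61.8 and 53.7 CPM in RbpjΔEC 1 to 3. Here RbpjΔEC 3 was below CTRL 2, so the groups overlapped by this pair alone. The means were 50.6 ± 3.36 and 58.1 ± 4.08 CPM (SD, n = 3). The log2 fold change of Mfng was 0.20 (standard error 0.0823, 95% interval 0.02 to 0.38, unadjusted p = 0.0330 and adjusted p = 0.238 by edgeR), and the unadjusted p was under 0.05 in 2 of 6 fits without 1 library.

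Lfng, the most abundant Fringe gene and a known Notch target in the segmenting embryo, was the most variable of the 9 genes. It lies on chromosome 5 from 140607320 to 140615545 on the plus strand (ENSMUSG00000029570.5), and its promoter is the first of the sequences shown above. Lfng had 90.2, 85.0 and 110.6 CPM in CTRL 1 to 3 and 96.7, 114.7 and 83.3 CPM in RbpjΔEC 1 to 3. The lowest and the highest value were both in RbpjΔEC, with the CTRL libraries between them. The means were 95.3 ± 13.5 CPM (SD, n = 3) and 98.2 ± 15.7 CPM (SD, n = 3), and the log2 fold change of 0.04 (standard error 0.131, edgeR adjusted p = 0.894) had a 95% interval from -0.25 to 0.34. Its sign turned to -0.04 without CTRL 2 and to -0.08 without RbpjΔEC 2.

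**Figure D2:**
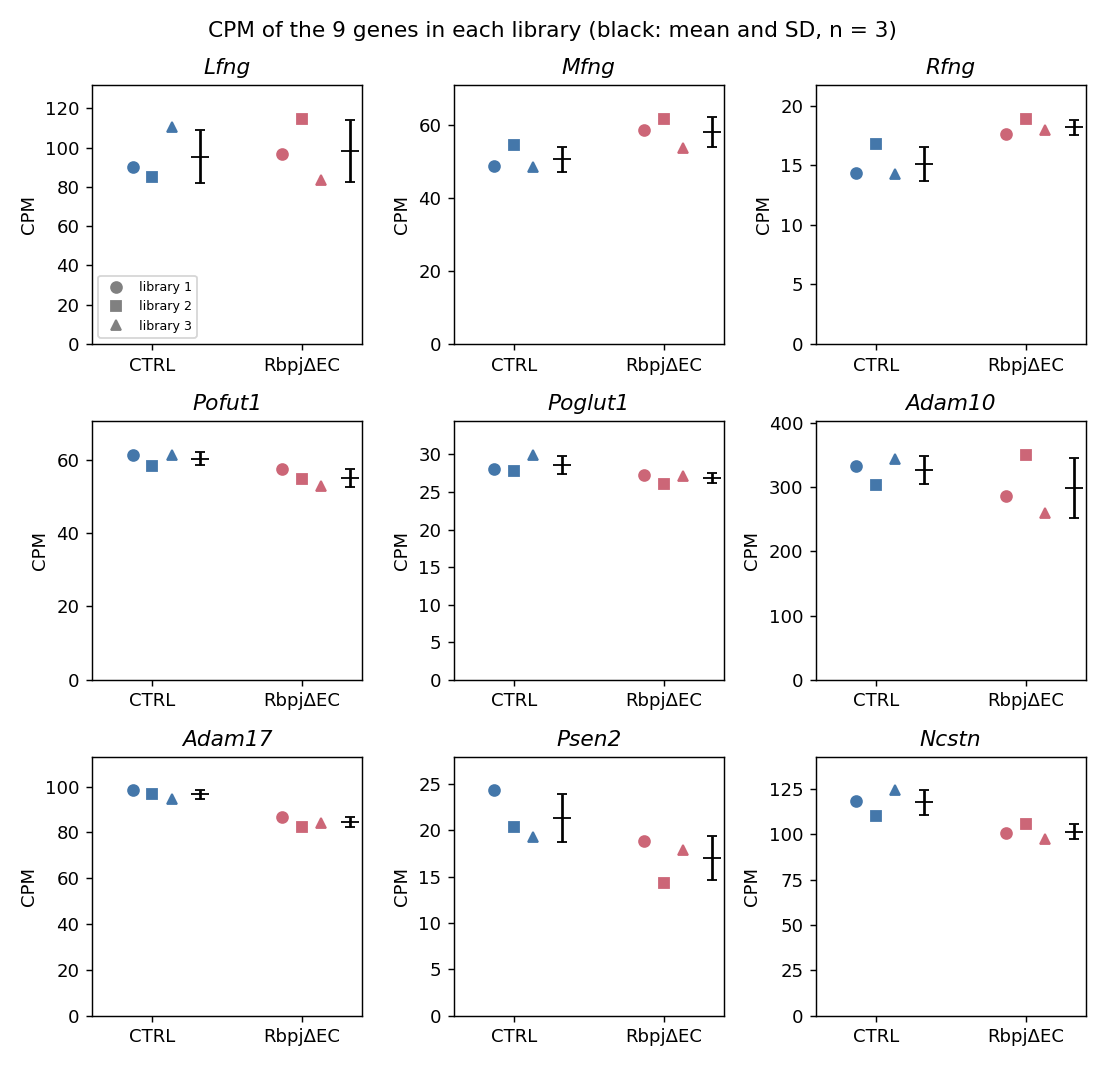
CPM of each of the 9 genes in the 3 CTRL (blue) and 3 RbpjΔEC (red) libraries, with the library number as the marker shape and the mean and SD (n = 3) in black. Rfng separates upward, Pofut1, Poglut1, Adam17, Psen2 and Ncstn separate downward, and Lfng, Mfng and Adam10 overlap.

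Pofut1 and Poglut1, which start the O-fucose and O-glucose chains, each had slightly lower values in RbpjΔEC, with no overlap. Pofut1, on chromosome 2 from 153241533 to 153270247 on the plus strand (ENSMUSG00000046020.13), had 61.4, 58.2 and 61.2 CPM in CTRL 1 to 3 and 57.5, 54.7 and 52.8 CPM in RbpjΔEC 1 to 3. The gap between the groups was less than 1 CPM, between CTRL 2 and RbpjΔEC 1. For Pofut1 the log2 fold change was -0.13 (standard error 0.0716, 95% interval -0.29 to 0.02, edgeR adjusted p = 0.367).
Poglut1, on chromosome 16 from 38525137 to 38550258 on the minus strand (ENSMUSG00000034064.14), had 28.1, 27.7 and 30.0 CPM in CTRL 1 to 3 and 27.3, 26.1 and 27.2 CPM in RbpjΔEC 1 to 3. Its groups were again less than 1 CPM apart. The log2 fold change of Poglut1 was -0.09 (standard error 0.0829, 95% interval -0.27 to 0.09, edgeR adjusted p = 0.604), and it was -0.06 without CTRL 3 and -0.05 on library size alone. On library size alone the groups overlapped for both genes.

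Adam10 and Adam17 had different patterns. Adam10, the most abundant of the 9 genes, lies on chromosome 9 from 70678997 to 70780229 on the plus strand (ENSMUSG00000054693.14). Adam10 had 333, 302 and 344 CPM in CTRL 1 to 3 and 285, 350.4 and 260.2 CPM in RbpjΔEC 1 to 3. RbpjΔEC 2 held the highest value of all libraries and the other 2 RbpjΔEC libraries held the lowest. The means were 326 ± 21.6 CPM (SD, n = 3) and 299 ± 46.5 CPM (SD, n = 3). This gave Adam10 a log2 fold change of -0.13 (standard error 0.104, 95% interval -0.36 to 0.10, edgeR adjusted p = 0.563), and it was -0.26 without RbpjΔEC 2 (unadjusted p = 0.0127 and adjusted p = 0.206 by edgeR) and -0.04 without RbpjΔEC 3. On library size alone it was -0.08.
Adam17, which also releases tumor necrosis factor from the cell surface, lies on chromosome 12 from 21323509 to 21373632 on the minus strand (ENSMUSG00000052593.16). Adam17 had 98.4, 97.0 and 94.6 CPM in CTRL 1 to 3 and 86.7, 82.5 and 84.0 CPM in RbpjΔEC 1 to 3. The groups were clearly apart and both were tight, with coefficients of variation of 1.99% in CTRL and 2.53% in RbpjΔEC. Adam17 had a log2 fold change of -0.19 (standard error 0.0648, 95% interval -0.34 to -0.05, unadjusted p = 0.0111 and adjusted p = 0.152 by edgeR). The unadjusted p was under 0.05 in 6 of 6 fits without 1 library. Adam17 shares 4.35% of its exonic bases with Iah1 on the other strand, a gene that averaged 6.45 ± 0.245 CPM in the CTRL mice against 6.26 ± 0.264 CPM in the RbpjΔEC mice (SD, n = 3).

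Psen2 had the largest downward difference with all libraries, but not without RbpjΔEC 2, where Psen2 had -0.22, Ncstn -0.25 and Adam10 -0.26 on the log2 scale. It lies on chromosome 1 from 180227004 to 180263438 on the minus strand (ENSMUSG00000010609.15), and the promoter of its inner start is the second of the sequences shown above. Psen2 had 24.3, 20.4 and 19.3 CPM in CTRL 1 to 3 and 18.8, 14.3 and 17.9 CPM in RbpjΔEC 1 to 3. CTRL 1 stood above and RbpjΔEC 2 below the other 4 libraries, which lay between 17.9 and 20.4 CPM. Its log2 fold change was -0.33 (standard error 0.127, 95% interval -0.60 to -0.05, unadjusted p = 0.0246 and adjusted p = 0.210 by edgeR). It was -0.23 without CTRL 1 and -0.22 without RbpjΔEC 2, and in these fits alone its unadjusted p was not under 0.05 (0.117 and 0.115 by edgeR's model). On library size alone the groups overlapped.

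Ncstn was lower in every RbpjΔEC library. It lies on chromosome 1 from 172066013 to 172082795 on the minus strand (ENSMUSG00000003458.12). Ncstn had 118, 110.3 and 124 CPM in CTRL 1 to 3 and 101, 106 and 97.5 CPM in RbpjΔEC 1 to 3. The nearest libraries were CTRL 2 and RbpjΔEC 2. The means were 118 ± 6.94 CPM (SD, n = 3) and 101 ± 4.18 CPM (SD, n = 3). The log2 fold change of Ncstn was -0.21 (standard error 0.0713, 95% interval -0.37 to -0.06, unadjusted p = 0.0111 and adjusted p = 0.152 by edgeR), and its unadjusted p was under 0.05 in 6 of 6 fits without 1 library. Ncstn shares 4.91% of its exonic bases with Copa, a coat protein gene on the other strand, and Copa averaged 254 ± 3.08 CPM in the CTRL mice against 225 ± 8.06 CPM in the RbpjΔEC mice (SD, n = 3), a log2 fold change of -0.18. The strand setting of the counting is not given in the sources used here, so reads from the shared bases may not be told apart.

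**Figure D3:**
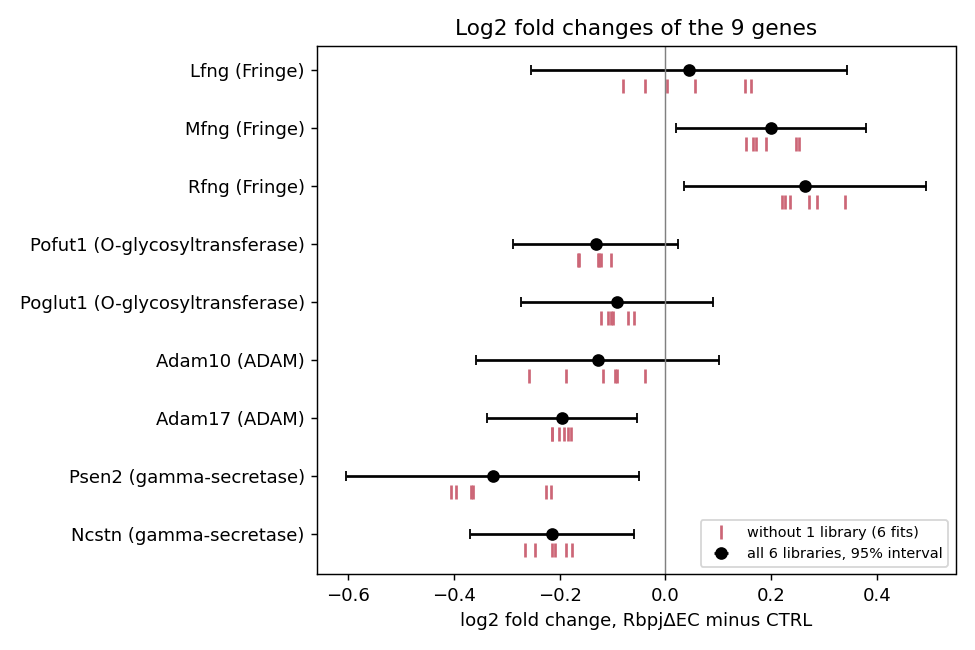
Log2 fold change (RbpjΔEC minus CTRL) of each of the 9 genes with its 95% interval from edgeR's quasi-likelihood fit (black), and the values from the 6 fits that each left out 1 library (red ticks). The intervals of Mfng and Rfng lie above 0, those of Adam17, Psen2 and Ncstn lie below 0, all before adjustment for the number of genes, and the ticks of Lfng lie on both sides of 0.

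Expressed as percent change, the 95% intervals bounded the differences these libraries allow. The lowest bound was -34.1% for Psen2 (interval -34.1% to -3.37%) and the highest was 40.7% for Rfng (2.49% to 40.7%). For Adam17 the interval was -20.8% to -3.62% and for Ncstn it was -22.6% to -3.98%. A doubling or a halving was outside the interval of each of the 9 genes. Their absolute log2 fold changes stood between the 14.0th percentile (Lfng) and the 69.4th percentile (Psen2) of all tested genes.

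Divided by exon length, the levels spread more than 10-fold, and every gene was expressed in every library. In CTRL the level per kilobase (CPM per kilobase of exon) was 66.4 ± 4.40 for Adam10, 38.0 ± 5.40 for Lfng, 29.6 ± 1.75 for Ncstn, 17.8 ± 1.18 for Mfng and 13.5 ± 0.268 for Adam17 (SD, n = 3). It was 6.14 ± 0.259 for Poglut1, 6.08 ± 0.177 for Pofut1, 6.08 ± 0.581 for Rfng and 4.93 ± 0.608 for Psen2 (SD, n = 3). Poglut1, Pofut1 and Rfng did not differ beyond their spread in CTRL, while each of the other neighbours in this order was apart in all 3 libraries. Rfng and Psen2 were close in CTRL 1, with 5.77 and 5.61 CPM per kilobase. In RbpjΔEC the order of the first 5 genes was the same, and Rfng with 7.30 ± 0.265 (SD, n = 3) stood above Poglut1 with 5.76 ± 0.141 and Pofut1 with 5.55 ± 0.242 CPM per kilobase (SD, n = 3). Among all tested genes, Adam10 stood at the 97.8th percentile of the CTRL level per kilobase, Lfng at the 95.2nd and Psen2 at the 62.0th. The order of the low genes depended on the length used. With the length of the longest coding transcript in place of all exons, the CTRL means were 10.8 for Pofut1, 10.6 for Psen2, 10.4 for Poglut1 and 7.14 for Rfng, and Ncstn with 40.5 came close to Lfng with 41.3 CPM per kilobase.

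**Figure D4:**
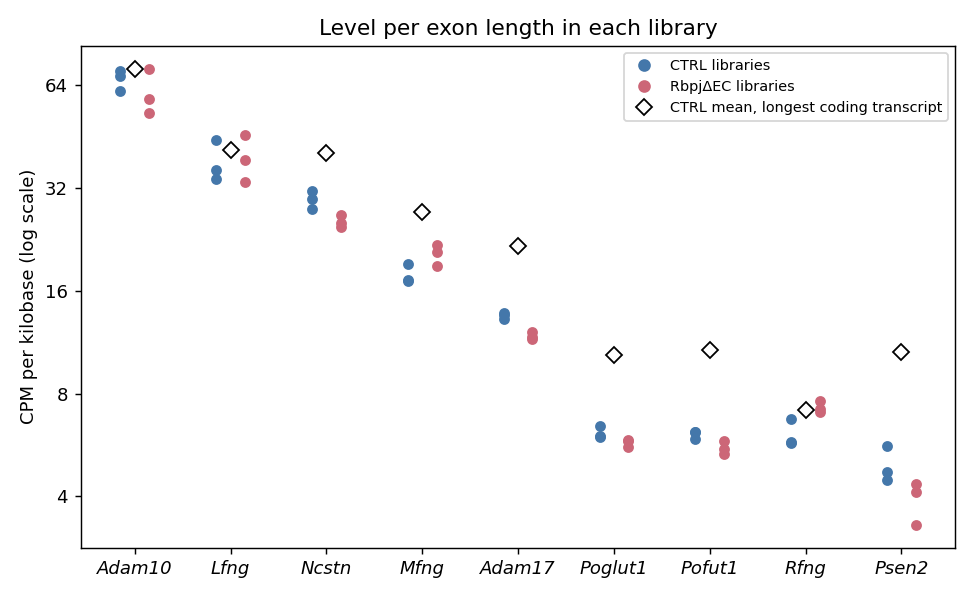
Level per kilobase of exon (log axis) of the 9 genes in each CTRL (blue) and RbpjΔEC (red) library, ordered by the CTRL mean, with the CTRL mean by the longest coding transcript as open diamonds. Adam10 stands at the top with 66.4 CPM per kilobase and Psen2 at the bottom with 4.93 by all exons.

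With all libraries, the make-up of each enzyme family overlapped between the groups. Lfng made up 61.2% ± 4.63 of the summed Fringe level per kilobase in CTRL and 58.4% ± 2.47 in RbpjΔEC (SD, n = 3). Mfng made up 28.9% ± 3.28 and 30.7% ± 1.50 (SD, n = 3), and Rfng made up 9.86% ± 1.36 and 11.0% ± 1.06 (SD, n = 3). The exact permutation test (two-sided) gave p = 0.4, 0.7 and 0.4 for Lfng, Mfng and Rfng, where the smallest p that 3 libraries against 3 allow is 0.1. Without CTRL 2 the Lfng and Rfng shares did not overlap, and the Lfng difference was -5.13 percentage points against -2.86 with all libraries and -0.502 without CTRL 3. Adam10 made up 83.1% ± 1.09 of the summed Adam10 and Adam17 level in CTRL and 83.6% ± 2.23 in RbpjΔEC (SD, n = 3, exact permutation p = 0.9), with the highest share, 86.1%, in RbpjΔEC 2, where Adam10 was highest and Adam17 lowest. Poglut1 made up 50.2% ± 0.868 of the summed Pofut1 and Poglut1 level in CTRL and 51.0% ± 1.13 in RbpjΔEC (SD, n = 3, exact permutation p = 0.5).

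**Figure D5:**
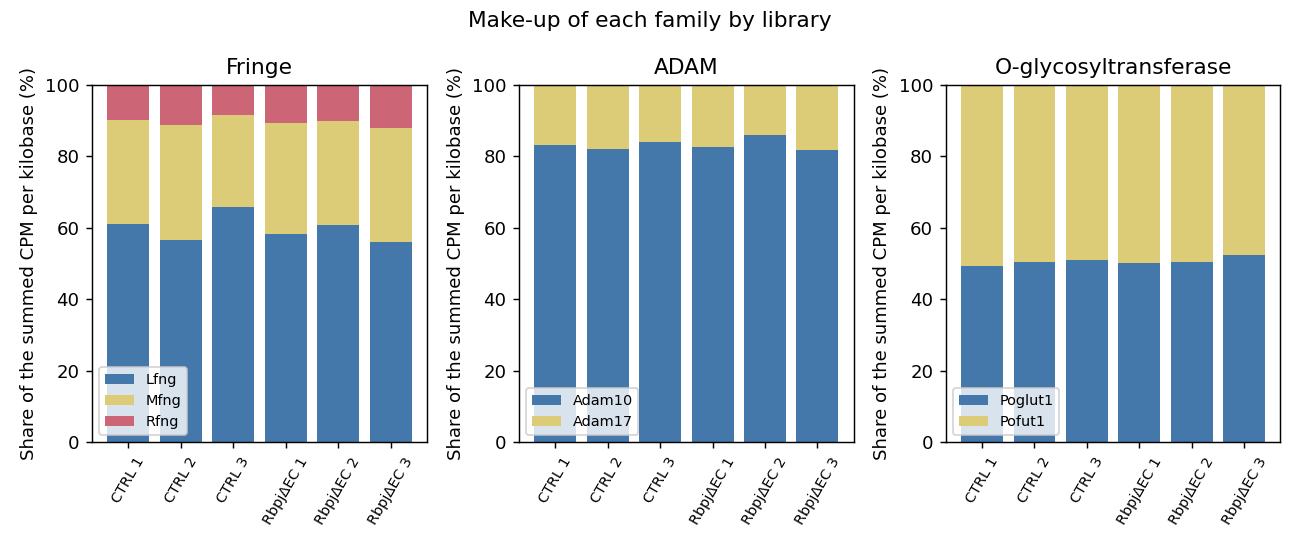
Share of each gene in the summed CPM per kilobase of its family (Fringe, ADAM and O-glycosyltransferase genes) in each of the 6 libraries. The Lfng share lies between 56.0% and 65.9%, and no family separates the CTRL from the RbpjΔEC libraries.

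The spread within the groups differed between the genes. The SD of log2 CPM within the groups was 0.03 for Adam17, 0.05 for Poglut1 and Pofut1 and 0.07 for Ncstn, at or below the 12.1st percentile of all tested genes. It was 0.21 for Lfng, at the 62.3rd percentile, 0.19 for Psen2 and 0.17 for Adam10. Counting error alone was at most 4.17% of the value in any library of the 9 genes. Across the 6 libraries, whose groups and depth these points share, Mfng and Rfng had a Pearson correlation of log2 CPM of 0.92, the highest of any pair of the 9 genes, and Rfng and Pofut1 had the lowest with -0.89. Among the 10438 genes compared, with a mean of at least 5 CPM, the gene most like each of the 9 across the 6 libraries was Zfp868 for Lfng (Pearson r = 0.981), Fzr1 for Mfng (0.993), Ric1 for Rfng (0.997), Anxa11 for Pofut1 (0.988), Nr3c2 for Poglut1 (0.989), Hnrnpk for Adam10 (0.996), Clpb for Adam17 (0.998), Atrnl1 for Psen2 (0.996) and Sdcbp for Ncstn (0.996). With 6 libraries and so many genes such values are a description only.

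Other genes that act on the receptor on its way to cleavage gave 0 calls. Of 37 tested genes in this list, 0 passed at the adjusted threshold in edgeR's fit, against 1.13% of all tested genes. In DESeq2's fit 1 (Numb) passed, where 944 of all 18438 genes did. An unadjusted p under 0.05 went with 4 lower and 2 higher genes, a share near the 17.5% of all tested genes, and the median log2 fold change was -0.06. By role, the 14 genes of sugar transfer and supply had 0 at an unadjusted p under 0.05, the 9 made up of Furin and partners of Adam10 or Adam17 had 1 lower and 1 higher, and the 9 of receptor turnover 2 lower. Numb, an adaptor that promotes Notch receptor degradation, had the smallest p, with 274, 273 and 268 CPM in CTRL 1 to 3 and 229, 224 and 224 CPM in RbpjΔEC 1 to 3. Its groups were far apart beside their spread, the log2 fold change of Numb was -0.27, and the adjusted p was 0.0622 by edgeR and 0.00497 by DESeq2's Wald test. The edgeR value lay between 0.0497 and 0.213 in the 6 fits without 1 library, and was under 0.05 only without CTRL 2. Furin, the protease that first cuts the receptor in the Golgi, averaged 170.2 ± 1.91 CPM in the CTRL mice against 150.3 ± 3.13 CPM in the RbpjΔEC mice (SD, n = 3), a log2 fold change of -0.18 at an edgeR adjusted p of 0.165.
Of the other gamma-secretase subunits, Aph1b had 17.8, 18.2 and 20.8 CPM in CTRL 1 to 3 and 15.4, 15.7 and 15.1 CPM in RbpjΔEC 1 to 3, a log2 fold change of -0.30 at an edgeR adjusted p of 0.155. Aph1c, a close copy of Aph1b with which reads may be shared, averaged 0.447 ± 0.0878 CPM in the CTRL mice against 0.924 ± 0.137 CPM in the RbpjΔEC mice (SD, n = 3), a log2 fold change of 1.04 at an edgeR adjusted p of 0.193. Aph1a averaged 17.3 ± 1.34 CPM in the CTRL mice against 18.3 ± 2.56 CPM in the RbpjΔEC mice (SD, n = 3). Psenen, the smallest subunit, averaged 6.97 ± 1.44 CPM in the CTRL mice against 6.56 ± 0.442 CPM in the RbpjΔEC mice (SD, n = 3). The groups overlapped for both.

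Among 13 receptors, ligands and targets of the pathway, all tested, 1 was lower and 1 higher at an adjusted p below 0.05, against 0.559% and 0.575% of all tested genes. At an unadjusted p below 0.05 they were 5 and 2, against 8.62% and 8.88% of all. Jag1, a ligand, had a log2 fold change of -0.54 (edgeR adjusted p = 0.0368), and it passed in 3 of 6 fits without 1 library, failing without CTRL 3, RbpjΔEC 1 or RbpjΔEC 2 (highest adjusted p 0.149). Nrarp, a feedback inhibitor and target, had 0.47 (edgeR adjusted p = 0.0377), and it also passed in 3 of 6, failing without CTRL 1, CTRL 3 or RbpjΔEC 1 (highest adjusted p 0.158). It also failed in the fit that was not robust, where Jag1 passed. The other targets, transcription factors of the Hes and Hey family named after their values were seen, did not pass. Hey1 had a log2 fold change of -0.76 (edgeR adjusted p = 0.0722) and Hey2 of -0.69 (edgeR adjusted p = 0.0859), each lower in RbpjΔEC with no overlap, while Heyl with -0.96 and Hes1 with 0.11 overlapped. Hey1 passed with DESeq2 (adjusted p = 0.00158), and in edgeR with the replicate number as a block (adjusted p = 0.0190), without the low-count filter (adjusted p = 9.26e-07) and without RbpjΔEC 3 (adjusted p = 0.0093). Hey2 passed with DESeq2 (adjusted p = 0.0147) and in edgeR without the low-count filter (adjusted p = 0.0141). Notch1, named after its values were seen as the receptor with the highest CPM per kilobase of the 4, averaged 1208 ± 50.5 CPM in the CTRL mice against 1095 ± 41.5 CPM in the RbpjΔEC mice (SD, n = 3), a log2 fold change of -0.14 (edgeR adjusted p = 0.335). Notch3, a receptor of mural cells, had a log2 fold change of -1.16 (edgeR adjusted p = 0.0522). It passed with DESeq2 (adjusted p = 0.000183), and in edgeR without the low-count filter (adjusted p = 3.86e-08) and without RbpjΔEC 3 (adjusted p = 0.0197). The RbpjΔEC libraries also had the lower mural markers given above, whose part was not tested.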

How the data were processed

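RNA of sorted kidney ECs from 3 CTRL and 3 RbpjΔEC mice was measured. The submitters' processing notes name bcl2fastq, Trim Galore 0.6.4, STAR 2.6.1d and featureCounts of Subread 1.6.4, and the study's methods name nf-core/rnaseq with GRCm38.p6 and GENCODE annotation. The authors deposited raw counts per gene, without normalization. TMM factors, CPM and tests were obtained from these counts by edgeR 4.0.16 under R 4.3.3 (filterByExpr, robust quasi-likelihood fit), with Benjamini-Hochberg adjustment over 18438 genes. Standard errors were the absolute log2 fold change divided by the square root of the F statistic of the quasi-likelihood test. The 95% intervals were built from them with the t distribution. DESeq2 1.42.0 was an alternative, as were other scalings, filters and left-out libraries. Exon lengths and positions came from GENCODE M21 on GRCm38, an older release than the one used for counting, and promoter sequences from RefSeq.

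The 9 genes and the lists were chosen with earlier results of these data known. All 9 genes are named in the text. From the lists of processing partners and of receptors, ligands and targets the text names genes past the threshold, the 3 with the smallest p and gamma-secretase subunits, and values of 1 listed gene are not given here. Genes most alike had the highest Pearson correlation of log2(CPM + 0.5). Genes that share exonic bases with one of the 9 are also named, and Notch1, Hes1, Hey1, Hey2, Heyl and the single cell type markers were added after their values were seen. The labels give each library as its own sample, and no 2 libraries of a group had identical counts.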

Additional observations from a re-analysis of the deposited data

How the results depend on the processing

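For the 9 genes, 0 passed the adjusted threshold in all 14 alternatives, with the smallest adjusted p at 0.0647 (Ncstn without CTRL 2, edgeR's quasi-likelihood test). Other than Lfng, which turned to -0.04 without CTRL 2 and to -0.081 without RbpjΔEC 2 (range -0.081 to 0.16 without 1 library), each gene kept the sign of its log2 fold change in all 14. The number at an unadjusted p under 0.05 was 5 in the 8 alternatives with all libraries and between 2 and 5 without 1 library in turn. The share of all tested genes was between 12.2% and 19.7% in the former and between 12.1% and 21.6% in the latter. The difference in the Adam10 share, 0.488 percentage points, turned to -0.0689 without CTRL 2 and -0.773 without RbpjΔEC 2 (range -0.773 to 1.34), and that of Adam17 turned to 0.0689 and 0.773 (range -1.34 to 0.773). Without 1 library the other share differences kept their signs, with ranges of -5.13 to -0.502 for Lfng, 0.0432 to 3.31 for Mfng, 0.459 to 1.82 for Rfng and 0.0653 to 1.13 for Poglut1.
Over all tested genes, 209 passed, against 1436 without the low-count filter, 944 with DESeq2's Wald test, 344 with the replicate block and between 21 (without RbpjΔEC 1) and 735 (without CTRL 2) without 1 library. Of the other processing genes, 1 (Numb) passed without the low-count filter, with DESeq2's Wald test and without CTRL 2, and between 0 and 1 without 1 library. Of the receptors, ligands and targets, 5 passed without the low-count filter and with DESeq2, 1 (Jag1) passed with a fit that was not robust, and between 0 and 4 without 1 library. The cause of these shifts was not tested.
The correlation of deviations from the group means was between -0.021 and 0.046 for same-numbered libraries of the 2 groups. For libraries with different numbers it was between -0.102 and 0.069. With 3 libraries in each group, these values cannot decide whether the replicate numbers mark a pairing. The fit with the replicate block called 0 of the 9 genes, as did the fit without it. Library size alone moved the median log2 fold change of all genes from 0.01 to 0.05, and the calls from 103 lower and 106 higher to 81 lower and 159 higher.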
